A study of Danio rerio with 6 samples.

Results

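Amino acids cross cell membranes through carrier proteins of the solute carrier (slc) families, and 7 of these families are described here in zebrafish liver cells: slc1a, slc3a, slc6a, slc7a, slc36a, slc38a and slc43a. The genes were chosen by name, as every row of the deposited table whose gene symbol starts with one of these 7 prefixes. This gave 74 of 23745 genes, with 11 in slc1a, 3 in slc3a, 25 in slc6a, 16 in slc7a, 2 in slc36a, 12 in slc38a and 5 in slc43a. The name is broader than the function. The slc6a family also holds carriers of neurotransmitters and creatine, slc43a3 is known in mammals as a nucleobase carrier, and slc7a6os is not a transporter but a gene named for its place beside slc7a6.

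Hepatocytes were isolated by fluorescence sorting from larvae at 6 days post fertilisation, 2000 cells per sample, and their poly(A) RNA was sequenced. The 3 CTL samples came from Tg(fabp10a:eGFP) larvae, in which a promoter active in hepatocytes drives a green reporter. The 3 lcat OE samples came from larvae with this reporter and Tg(fabp10a:lcat-T2A-mCherry), in which the same promoter drives lcat, a secreted enzyme that esterifies cholesterol on lipoproteins, together with a red reporter. The study asked which transcripts change when lcat overexpression brings on early fat accumulation in the liver. No group carries the red reporter without lcat, so effects of lcat, of the red reporter and of the fish line cannot be told apart, and the labels do not say whether replicates were separate clutches or sorts, so the p-values measure only the spread between these samples.

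The liver takes up glutamine, alanine, arginine and other amino acids from the blood for protein, glucose and urea synthesis, and releases others. System A carriers such as slc38a2 and slc38a4 move small neutral amino acids with sodium, while the system N carriers slc38a3 and slc38a5 move glutamine, histidine and asparagine in either direction. Several slc7a proteins work only when bound to an slc3a heavy chain, which brings them to the cell surface. These roles are known mainly from mammals.

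The libraries held 23336591 to 24890856 counts. Values called CPM are counts per 1000000 of the library total, after that total was multiplied by a trimmed-mean (TMM) factor. The gene lcat had 120 to 149 CPM in the CTL libraries and 1956 to 3251 CPM in the lcat OE libraries. The 12 hepatocyte markers together held 232033 to 258372 CPM in CTL and 286412 to 335683 CPM in lcat OE, with 2 higher (apoa2 and tfa), 1 lower (fgb) and 9 that did not pass. Over the alternatives 1 to 5 of them were higher and 0 to 4 lower. Epidermal markers (10 genes) summed to 255 to 605 CPM in CTL and 9319 to 14285 CPM in lcat OE, with 9 of 10 higher and none of them at 0. The other gene of this list, tp63, had a lower mean in lcat OE and did not pass (1.47 to 0.760 CPM, log2 fold change -0.93, edgeR adjusted p = 0.0947). Most of the epidermal sum in lcat OE came from krt4, cyt1 and cyt1l (means of 3489, 3350 and 3317 CPM). Photoreceptor markers (10 genes) summed to 43.2 to 69.3 CPM in CTL and 3.92 to 5.25 CPM in lcat OE, with 7 of 8 tested genes lower. Neuron and glia markers (11 genes) summed to 16.8 to 19.2 CPM in CTL and 6.41 to 7.80 CPM in lcat OE, with 5 of 7 tested genes lower (1 to 6 over the alternatives, and 3 without any 1 of CTL 1, CTL 3, lcat OE 1 or lcat OE 2). Exocrine pancreas markers (13 genes) summed to 708 to 1648 CPM in CTL and 45.1 to 273 CPM in lcat OE, with 5 of 13 lower (1 without lcat OE 1, 8 without lcat OE 2 and 11 with DESeq2). No gene of these lists was at 0 in all libraries. In such bulk samples, fewer cells of a type and less RNA per cell cannot be told apart.

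The families differed widely in level. Levels are given here in TPM, which is also scaled by transcript length and can be compared between genes. Summed over each family, slc38a made up 51.7% of the TPM of all 74 genes on average over the 6 libraries, slc43a 18.2%, slc7a 15.7%, slc6a 8.63%, slc1a 3.26%, slc3a 2.31% and slc36a 0.250%. One gene held most of each sum. This was slc38a4 in slc38a (69.8%), slc43a3b in slc43a (89.5%), slc7a2 in slc7a (56.3%), slc6a13l in slc6a (63.9%), slc1a3a in slc1a (85.2%), slc3a2b in slc3a (82.6%) and slc36a1 in slc36a (83.8%). All 74 genes together had 545, 519.9 and 544 TPM in CTL 1 to 3 and 422, 373 and 437 TPM in lcat OE 1 to 3, so the groups did not overlap. Their share of the read counts was 0.213%, 0.194% and 0.207% in CTL and 0.169%, 0.147% and 0.175% in lcat OE. The gene slc38a4 made up 36.1% of these TPM, and on the log2(TPM + 0.1) scale the median difference between lcat OE and CTL over all tested genes was itself -0.18.

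**Figure D1:**
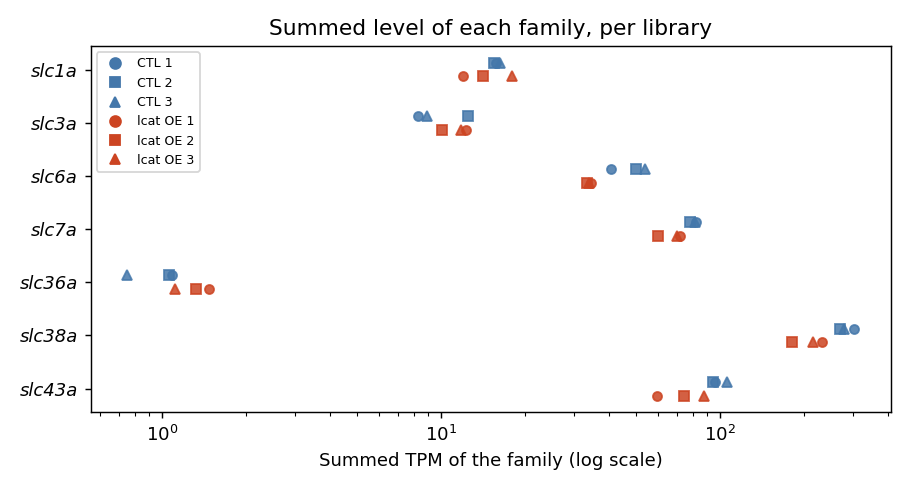
Summed TPM of each of the 7 families (log scale) in each library, CTL in blue and lcat OE in red. The slc38a family lies highest in every library (180.01 to 302 TPM) and slc36a lowest (0.750 to 1.47 TPM).

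The 12 genes with the highest mean TPM ranged from 172.7 TPM (slc38a4) to 4.96 TPM (slc43a1a). The order below slc38a4 was not sharp: over the 6 libraries the range of each later gene overlapped that of the gene ranked next, and among these 12 only slc38a4 (119 to 224 TPM) stood clear of its neighbour slc43a3b (48.9 to 97.5 TPM). After these came slc38a3b (36.1 to 57.9 TPM), slc7a2 (36.5 to 46.4 TPM), slc6a13l (19.6 to 37.9 TPM), slc7a3a (13.1 to 27.1 TPM) and slc1a3a (10.6 to 16.7 TPM). The last of the 12, below slc1a3a, were slc38a5b, slc3a2b, slc38a3a, slc6a13 and slc43a1a. In all, 25 of the 74 genes had a mean of 1 TPM or more.

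**Figure D2:**
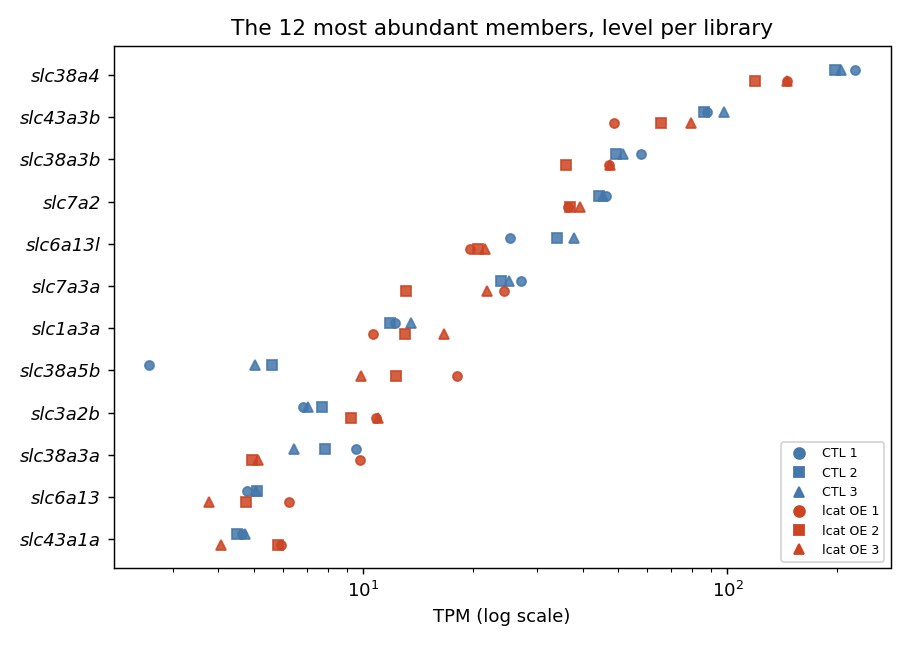
TPM (log scale) of the 12 most abundant genes, with 1 point per library, CTL in blue and lcat OE in red. The levels fall from 172.7 TPM on average for slc38a4 to 4.96 TPM for slc43a1a, and slc38a5b shows CTL (2.58 to 5.62 TPM) and lcat OE (9.85 to 18.1 TPM) apart.

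Of the 74 genes, 40 passed the filter on low counts and were tested on counts across all genes, with edgeR's quasi-likelihood test and Benjamini-Hochberg adjustment over 14096 genes. In lcat OE, 7 were higher and 7 lower than in CTL at an adjusted p under 0.05, which is 35.0% of those tested. Over all tested genes 32.6% passed, 16.3% as higher and 16.3% as lower, so the share among the transporters was near that of all genes. The median log2 fold change was -0.10 over the 40 genes and -0.02 over all 14096. The values of the 2 groups did not overlap for 18 of the 40 genes, or 45.0%, against 47.7% of all tested genes. Of these 18, 9 were higher and 9 lower in lcat OE, where 23.6% of all tested genes were higher and 24.1% lower without overlap. A change of 2-fold or more that also passed was seen for 5 of the 40 genes as higher and 6 of the 40 as lower. Over all 14096 tested genes it was seen for 1075 (7.63%) as higher and 1264 (8.97%) as lower. At this size of change the shares among the 40 were thus larger, and the difference was not tested. The count of lower genes at any size of change was 4 without CTL 2 and 4 without lcat OE 2. Scaling moved the balance of calls: over all genes 49.9% of the calls were higher with trimmed-mean (TMM) factors, 38.8% with library totals and 30.8% with limma on log2(TPM + 1), and among the 74 genes the counts were 5 higher and 8 lower with library totals and 5 and 9 on log2(TPM + 1).

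Family by family, 0 of 3 tested slc1a genes rose and 2 fell by edgeR (none had an unadjusted p under 0.05 as higher, and DESeq2 and limma called none higher). Without lcat OE 1, however, 1 slc1a gene was higher. In slc3a, 1 of 2 rose. In slc6a, 1 of 10 rose and 4 fell; 2 fell without CTL 2, 1 without lcat OE 1 and 1 without lcat OE 2. In slc7a, 1 of 8 rose and the other 7 did not pass, though slc7a3b passed as lower without lcat OE 1. In slc36a, 1 of 2 rose (0 to 1 over the alternatives). In slc38a, 2 of 10 rose and 1 fell (0 to 2 fell over the alternatives). In slc43a, 1 of 5 rose (0 to 1 over the alternatives). Over all tested genes, 16.3% rose and 16.3% fell. The median log2 fold change per family lay between -1.09 (slc1a) and 0.93 (slc36a).

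**Figure D3:**
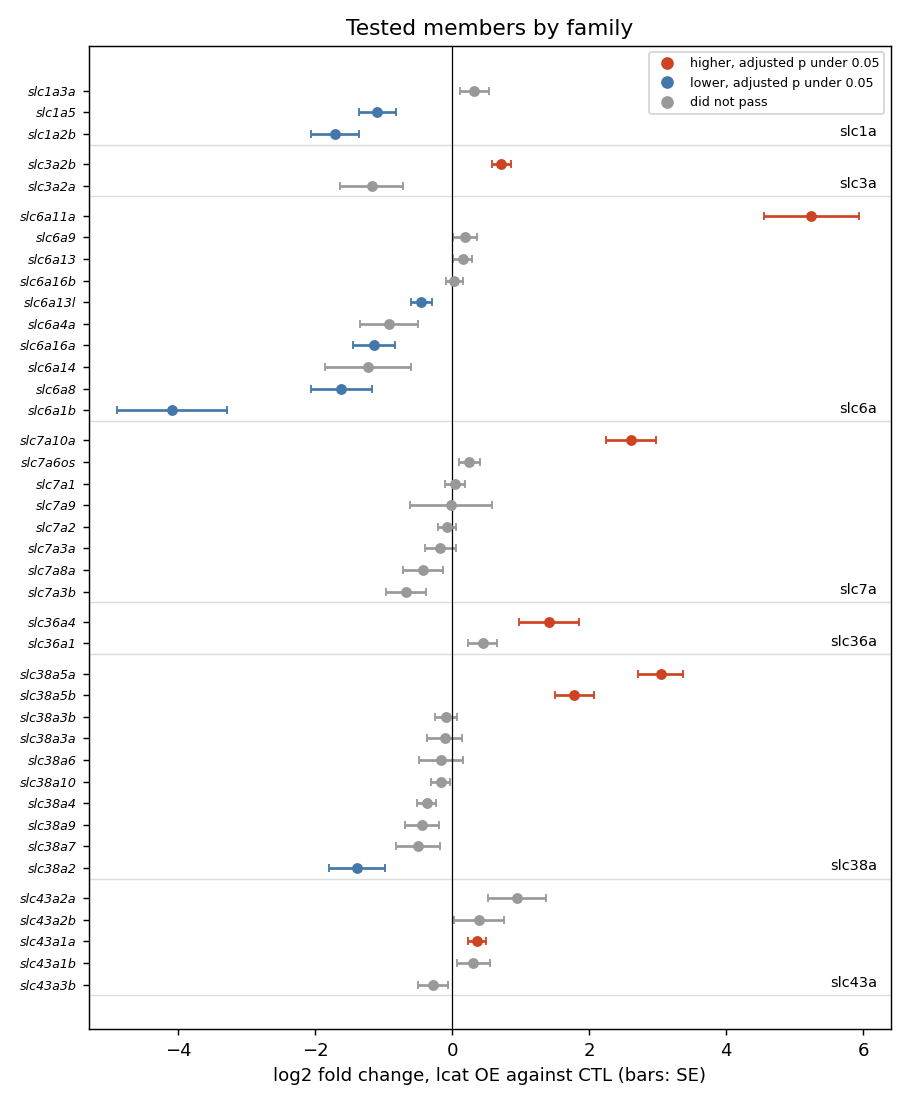
Log2 fold change of lcat OE against CTL, with its SE, for the 40 tested genes grouped by family; red and blue mark genes past the threshold as higher or lower and grey those that did not pass. The values run from -4.08 (slc6a1b) to 5.25 (slc6a11a), and the abundant slc38a4, slc38a3b and slc7a2 lie within 0.4 of 0.

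Both copies of the system N carrier slc38a5 rose. The gene slc38a5b (NCBI gene 436921) had 7.53, 15.1 and 14.1 CPM in CTL 1 to 3 and 53.3, 37.9 and 35.1 CPM in lcat OE 1 to 3. Every lcat OE library lay above every CTL library, and the log2 fold change was 1.78 (SE 0.28, edgeR adjusted p = 0.00327), or 3.44-fold. Its duplicate slc38a5a (NCBI gene 100005797) had 0.423, 1.33 and 0.698 CPM in CTL and 8.05, 6.57 and 5.79 CPM in lcat OE. The groups were again apart, with a log2 fold change of 3.04 (SE 0.33, edgeR adjusted p = 0.000145), or 8.24-fold. The summed level of the pair was 4.82 ± 1.83 TPM in CTL and 16.4 ± 4.99 TPM in lcat OE (SD, n = 3 each). The markers of other cell types given above moved in the same libraries, and their part in these rises was not tested.

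The other system N carrier, slc38a3, was more abundant and did not pass. The copy slc38a3b (NCBI gene 101884924) had 125, 98.8 and 107 CPM in CTL and 103, 82.4 and 126 CPM in lcat OE, so the groups overlapped (log2 fold change -0.09, SE 0.16, edgeR adjusted p = 0.708). The copy slc38a3a had 8.30 to 12.9 CPM in CTL and 7.05 to 13.3 CPM in lcat OE (log2 fold change -0.11, SE 0.25). The summed TPM of the slc38a3 pair was 12.6 times that of the slc38a5 pair in CTL and 3.07 times in lcat OE, by the ratio of group means. In CTL 1 to 3 the slc38a3 pair had 67.4, 57.4 and 58.1 TPM and the slc38a5 pair 2.78, 6.30 and 5.38 TPM, so this ratio was highest in CTL 1. In lcat OE 1 to 3 they had 57.0, 41.1 and 52.8 TPM and 21.8, 15.2 and 12.1 TPM.

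Of the system A genes, slc38a2 fell and slc38a4 did not pass. The most abundant of the 74 genes, slc38a4 (NCBI gene 449771), had 1186, 950.3 and 1027 CPM in CTL and 799, 684 and 962 CPM in lcat OE. Library lcat OE 3 lay inside the CTL range, and the log2 fold change was -0.37 (SE 0.14) with an edgeR adjusted p = 0.0699, so the gene did not pass. It passed with 6 of 14 alternatives, among them library totals (-0.47, adjusted p = 0.00348), log2(TPM + 0.1) (-0.61, adjusted p = 0.0026 by limma) and leaving out lcat OE 3 (-0.49, adjusted p = 0.0106), and the range over the alternatives was 0.0026 to 0.241. On the TPM scale it had 209 ± 14.1 in CTL and 137 ± 15.2 in lcat OE (SD, n = 3 each), with no overlap. The median difference over all tested genes was -0.18 on log2(TPM + 0.1). The gene slc38a2, which in mammals is induced when amino acids are scarce, had 9.47, 10.1 and 12.2 CPM in CTL and 6.33, 1.72 and 4.11 CPM in lcat OE. It fell by 1.39 on the log2 scale (SE 0.41, edgeR adjusted p = 0.0415), with the lcat OE libraries far apart from each other. The slc38a2 call was lost without any 1 of CTL 1 (adjusted p = 0.0759), CTL 2 (0.0816), CTL 3 (0.104) or lcat OE 3 (0.138), and with no filter on low counts (0.139), over a range of 0.00131 to 0.139. Exocrine pancreas markers were also lower in these libraries (708 to 1648 CPM in CTL, 45.1 to 273 CPM in lcat OE), and their part in the falls of slc38a2, slc1a5 and slc6a16a was not tested.

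Members of slc38a known from inside the cell did not pass. The gene slc38a9, which in mammals senses arginine at the lysosome for mTORC1, had 2.24 to 2.63 CPM in CTL and 1.35 to 2.20 CPM in lcat OE. Its groups were narrowly apart (log2 fold change -0.44, edgeR adjusted p = 0.216). The groups overlapped for slc38a7, a lysosomal glutamine exporter (1.60 to 4.07 CPM over all libraries, -0.50), and for slc38a10 (10.6 to 14.0 CPM, -0.17). These and the other genes that did not pass and are named here outside the rule for named genes were picked after their values were seen. The 26 tested genes of the 7 families that did not pass had log2 fold changes from -1.23 to 0.95.

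Heavy chains and light chains of the paired transporters were measured very unevenly. The heavy chain slc3a2 (CD98hc) has 2 copies. The copy slc3a2b (NCBI gene 399488) had 14.6, 15.2 and 14.3 CPM in CTL, close together, and 23.3, 20.9 and 28.6 CPM in lcat OE. All lcat OE libraries were higher, with a log2 fold change of 0.72 (SE 0.13, edgeR adjusted p = 0.00238), or 1.65-fold. The copy slc3a2a (NCBI gene 796322) had 2.96, 9.27 and 3.57 CPM in CTL and 2.92, 1.80 and 2.29 CPM in lcat OE. Its CTL 2 value stood above the other CTL libraries, and the log2 fold change of -1.17 (SE 0.46) did not pass (edgeR adjusted p = 0.0925); it was -0.49 without CTL 2, and the gene passed with DESeq2 (adjusted p = 0.0293) and without CTL 1 (0.0302), within 0.0293 to 0.265 over the alternatives. Together both copies summed to 9.74 ± 2.25 TPM in CTL and 11.3 ± 1.13 TPM in lcat OE (SD, n = 3 each), of which slc3a2b made up 83.5%, 62.7% and 80.4% in CTL and 89.1%, 92.2% and 92.7% in lcat OE.

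The partners of slc3a2 among the light chains were scarce. The 7 light-chain genes slc7a5, slc7a6, slc7a7, slc7a8a, slc7a10a, slc7a10b and slc7a11 summed to 1.05, 1.75 and 1.42 TPM in CTL and 2.66, 1.98 and 1.64 TPM in lcat OE. The heavy chain thus had 6.15 to 7.77 times the summed light-chain TPM in CTL and 4.56 to 7.20 times in lcat OE, with overlapping groups. One light chain rose in this test: slc7a10a (NCBI gene 567420), which in mammals exchanges small neutral amino acids including D-serine and glycine, had 0.381, 0.645 and 0.616 CPM in CTL and 3.82, 4.32 and 1.96 CPM in lcat OE. All lcat OE libraries were higher, with a log2 fold change of 2.61 (SE 0.37, edgeR adjusted p = 0.000507), or 6.11-fold. Its share of the light-chain TPM was 11.4% to 14.1% in CTL and 29.9% to 62.6% in lcat OE. Another light chain, slc7a6, had 11 counts in CTL and 65 in lcat OE, and passed as higher only with DESeq2 and with no filter on low counts. The summed epidermal markers were at 255 to 605 CPM in CTL and 9319 to 14285 CPM in lcat OE, and their part in these values was not tested.

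The neutral amino acid light chain slc7a8a had 3.60, 5.16 and 4.72 CPM in CTL and 3.53, 1.96 and 4.62 CPM in lcat OE and did not pass (edgeR adjusted p = 0.295). The light chains slc7a5 (LAT1, 38 counts over all 6 libraries), slc7a7 (39 counts) and slc7a6 (76 counts), the cystine-glutamate exchanger slc7a11 (13 counts) and slc7a10b (4 counts) were too low to be tested. The kidney and gut pair slc3a1 and slc7a9 was also low, with 49 counts in all for slc3a1 and 0.296 to 1.85 CPM for slc7a9 (edgeR adjusted p = 0.984).

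The cationic amino acid carriers, which bring in arginine and lysine without a heavy chain, did not pass. The liver isoform of mammals, slc7a2, had 158, 139 and 148 CPM in CTL and 126, 133 and 164 CPM in lcat OE, overlapping (NCBI gene 494041, log2 fold change -0.08, SE 0.13, edgeR adjusted p = 0.683). The gene slc7a3a had 135, 109 and 119.9 CPM in CTL and 122, 68.9 and 133 CPM in lcat OE, with lcat OE 2 the lowest (NCBI gene 492363, log2 fold change -0.17, SE 0.23, edgeR adjusted p = 0.615). On the TPM scale slc7a2 had 44.3 to 46.4 in CTL and 36.5 to 39.4 in lcat OE, with no overlap. It did not pass there either (-0.27 on log2(TPM + 0.1), adjusted p = 0.064 by limma). The 4 genes slc7a1, slc7a2, slc7a3a and slc7a3b summed to 74.0 ± 2.53 TPM in CTL and 60.1 ± 6.29 TPM in lcat OE (SD, n = 3 each), also with no overlap. On log2(TPM + 0.1) the median difference over all tested genes was itself -0.18, and its part in this lower sum was not tested.

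In the slc43a family, slc43a1a, a carrier of leucine and other large neutral amino acids (LAT3 in mammals), was slightly higher. It had 15.0, 13.4 and 14.6 CPM in CTL and 19.3, 19.9 and 16.1 CPM in lcat OE (NCBI gene 334395). The groups did not overlap, and the log2 fold change was 0.36 (SE 0.13, edgeR adjusted p = 0.046). This call was lost without any 1 of CTL 1, CTL 2, CTL 3, lcat OE 1 or lcat OE 2 (adjusted p = 0.0678, 0.161, 0.104, 0.109 and 0.142) and with 12 of 14 alternatives in all (0.0141 to 0.49), and its value was 0.17 on log2(TPM + 0.1). The abundant slc43a3b had 239.5, 217 and 254 CPM in CTL and 134, 188 and 264 CPM in lcat OE, where the lcat OE libraries spread about the CTL range (NCBI gene 556206, log2 fold change -0.28, SE 0.22, edgeR adjusted p = 0.377). It passed without lcat OE 3 (-0.53, adjusted p = 0.0231) and with limma on log2(TPM + 1) (-0.51, adjusted p = 0.0448) and log2(TPM + 0.1) (-0.51, adjusted p = 0.0417), with a range of 0.0231 to 0.836. The other slc43a genes did not pass; slc43a1b did so without lcat OE 1 and slc43a2a without lcat OE 2, both as higher.

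Of the slc36a genes, slc36a4 was higher. It had 0.296, 1.01 and 0.575 CPM in CTL and 2.18, 1.64 and 1.21 CPM in lcat OE (NCBI gene 504109, log2 fold change 1.41, SE 0.44, edgeR adjusted p = 0.0298), and the groups were narrowly apart. The call was lost with 7 of 13 alternatives: library totals (adjusted p = 0.0545), both TPM scales (0.0849 and 0.08), and without CTL 1 (0.0759), CTL 3 (0.0879), lcat OE 1 (0.0994) or lcat OE 2 (0.0694). Its relative slc36a1, known from lysosomes in mammals, had 2.38 to 4.02 CPM in CTL and 4.23 to 4.43 CPM in lcat OE and did not pass (edgeR adjusted p = 0.137), except without CTL 1.

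The slc1a family holds sodium-driven carriers of glutamate and exchangers of small neutral amino acids. Most of its level came from slc1a3a, a glutamate carrier (EAAT1 in mammals), with 25.5, 23.0 and 26.6 CPM in CTL and 22.7, 28.7 and 42.8 CPM in lcat OE. The groups overlapped, and lcat OE 3 was the highest (NCBI gene 323439, log2 fold change 0.33, SE 0.21, edgeR adjusted p = 0.27); it passed without lcat OE 1 (0.53, adjusted p = 0.0446), the lowest of the alternatives, which ran to 0.765. The glutamine exchanger slc1a5 (ASCT2) was lower, with 4.61, 3.43 and 2.51 CPM in CTL and 1.64, 1.48 and 1.82 CPM in lcat OE. The groups were apart, and the log2 fold change was -1.09 (NCBI gene 100002129, SE 0.27, edgeR adjusted p = 0.0101). The glutamate carrier slc1a2b, whose mammalian counterpart is a glial carrier also found in some hepatocytes, had 1.90, 2.82 and 3.37 CPM in CTL and 1.11, 0.480 and 0.887 CPM in lcat OE, apart as well (NCBI gene 335836, log2 fold change -1.71, SE 0.35, edgeR adjusted p = 0.00441). Beside slc1a2b, the summed neuron and glia markers were at 16.8 to 19.2 CPM in CTL and 6.41 to 7.80 CPM in lcat OE, and their part in this fall was not tested.

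The slc6a family held the highest and the lowest log2 fold change of the 40 tested genes. Its most abundant tested gene, slc6a13l (NCBI gene 561024, named slc6a22.2 in a later RefSeq table), had 64.3, 80.1 and 91.7 CPM in CTL and 50.5, 55.6 and 67.1 CPM in lcat OE. The highest lcat OE library lay above the lowest CTL library, and the log2 fold change was -0.45 (SE 0.15, edgeR adjusted p = 0.0457). The call was lost with DESeq2 (adjusted p = 0.0593) and without CTL 2 (0.114), CTL 3 (0.179), lcat OE 1 (0.152) or lcat OE 2 (0.125), within 0.0149 to 0.179. Its neighbour slc6a13 (slc6a22.1 in that table) had 14.2 to 14.9 CPM in CTL and 14.2 to 19.3 CPM in lcat OE and did not pass (log2 fold change 0.16, SE 0.14, edgeR adjusted p = 0.412); the sign of this value turned on both TPM scales.

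The genes slc6a11a and slc6a1b, 2 carriers of the inhibitory transmitter GABA, had low counts, and slc6a11a rose while slc6a1b fell. They are not all the GABA carriers of slc6a. The better-counted row LOC100332592, named slc6a13 in the later RefSeq table, was lower (log2 fold change -0.87, SE 0.17, edgeR adjusted p = 0.00327). That row was picked after its values were seen. The gene slc6a11a (NCBI gene 558960) had 0, 0.0403 and 0.0411 CPM in CTL, 2 counts in all, and 1.77, 1.04 and 0.887 CPM in lcat OE, 88 counts in all. The ratio of lcat OE to CTL was 45.3 (exact 95% counting interval 12.2 to 379.7), with an edgeR adjusted p = 0.000343, and the ratio was 30.6 without CTL 1. The gene slc6a1b (NCBI gene 492490) had 0.761, 0.766 and 0.904 CPM in CTL, 59 counts, and 0, 0 and 0.140 CPM in lcat OE, where all 3 counts were in lcat OE 3. The ratio of CTL to lcat OE was 19.1 (6.23 to 95.3), with an edgeR adjusted p = 0.00327. It was 12.5 without lcat OE 1, 12.4 without lcat OE 2 and, with no count left, at least 6.66 without lcat OE 3, against a floor of 3 counts per library. Such intervals and floors cover counting error only. The fitted log2 fold changes were 5.25 for slc6a11a and -4.08 for slc6a1b. Beside slc6a1b, the photoreceptor and the neuron and glia markers were also lower in lcat OE, and their part in this fall was not tested. Beside slc6a11a, the summed epidermal markers were at 255 to 605 CPM in CTL and 9319 to 14285 CPM in lcat OE. Their part in the rise of slc6a11a was not tested.

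The creatine carrier slc6a8 (NCBI gene 567544) had 1.14, 2.66 and 1.89 CPM in CTL and 0.370, 0.480 and 1.03 CPM in lcat OE, narrowly apart, with a log2 fold change of -1.61 (SE 0.45, edgeR adjusted p = 0.0188). Its call was lost without CTL 2 (adjusted p = 0.0844), lcat OE 1 (0.0608) or lcat OE 2 (0.0723), within 0.00479 to 0.0844. In the same libraries the 10 skeletal muscle markers summed to 55.7 to 206 CPM in CTL and 9.82 to 16.6 CPM in lcat OE. Of 9 tested, 4 were lower (2 to 9 over the alternatives). The part of these markers in the slc6a8 value was not tested. The orphan carrier slc6a16a (NCBI gene 555229) had 3.85, 2.62 and 2.88 CPM in CTL and 1.19, 1.0 and 2.05 CPM in lcat OE, apart, with a log2 fold change of -1.15 (SE 0.31, edgeR adjusted p = 0.0157). That call was lost without CTL 1 (adjusted p = 0.057), lcat OE 1 (0.0513) or lcat OE 2 (0.0602), within 0.00503 to 0.0602. The glycine carrier slc6a9, at 23.4 to 31.5 CPM in CTL and 25.5 to 40.2 CPM in lcat OE, did not pass (edgeR adjusted p = 0.438).

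**Figure D4:**
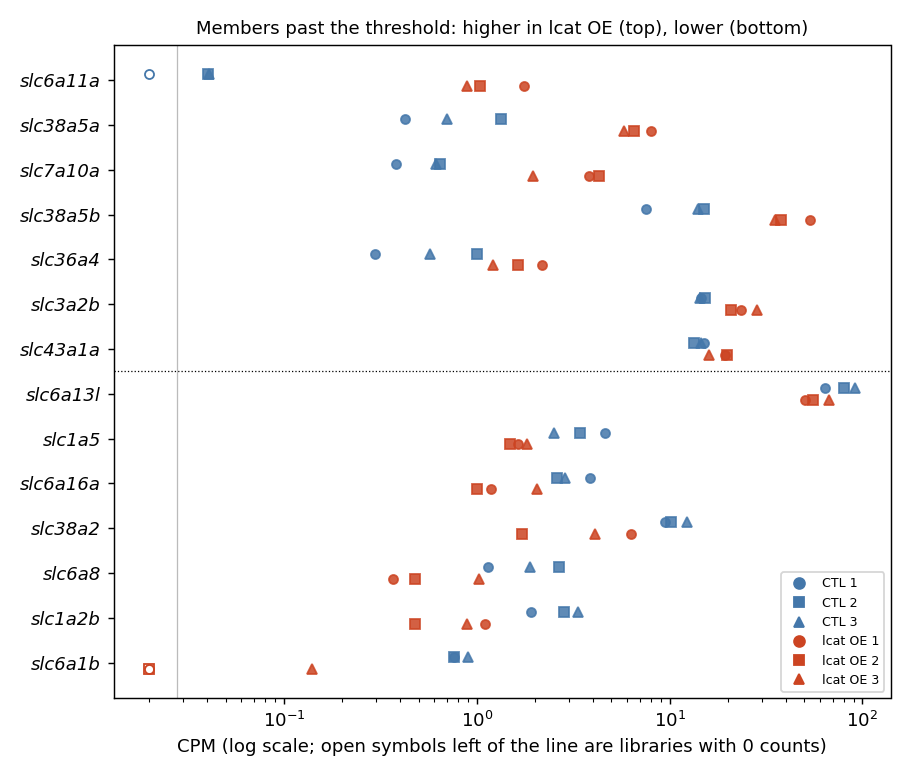
CPM (log scale) of the 14 genes past the threshold, with 1 point per library, CTL in blue and lcat OE in red; open symbols left of the grey line stand for 0 counts. The groups are apart in 13 of the genes and overlap in slc6a13l, and slc6a11a and slc6a1b hold libraries with 0 counts. The genes were chosen by the test between these same groups, so the number that are apart adds no support.

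Many zebrafish transporters are kept as a and b copies from the genome duplication of fishes, and in 7 such pairs both copies were tested. The ratio of the copies within a library does not depend on the scaling between libraries. The log2 ratio of slc38a5a to slc38a5b was -4.15, -3.51 and -4.33 in CTL and -2.73, -2.53 and -2.60 in lcat OE, a mean difference of 1.38. That of slc3a2a to slc3a2b was -2.30, -0.71 and -2.00 in CTL and -3.0, -3.53 and -3.64 in lcat OE, a difference of -1.72. That of slc6a16a to slc6a16b was -1.79, -2.23 and -2.32 in CTL and -3.50, -3.87 and -2.63 in lcat OE, a difference of -1.22. In these 3 pairs the groups did not overlap, and the two-sided exact permutation test gave p = 0.1 for each, the smallest p that 3 against 3 allows (0.233 adjusted over the 7 pairs). Among single genes, 47.7% of all those tested had groups that did not overlap. No such share was taken over the ratios of other gene pairs. In the pairs of slc38a3, slc7a3, slc43a1 and slc43a2 the groups overlapped, with exact permutation p from 0.2 to 1.

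**Figure D5:**
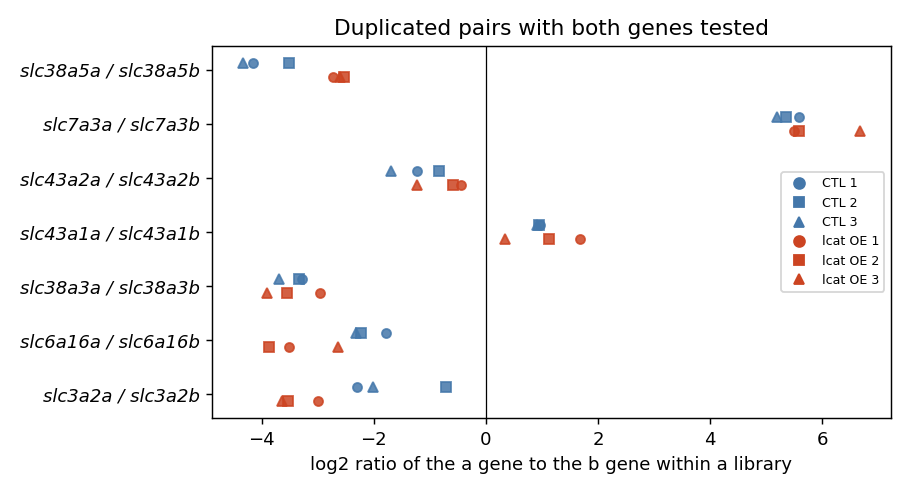
Log2 ratio of the a copy to the b copy within each library, for the 7 pairs in which both were tested, CTL in blue and lcat OE in red. The groups are apart for slc38a5, slc3a2 and slc6a16, and the slc7a3 pair has the largest ratios (5.19 to 6.67).

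The 34 genes that were not tested had 1 to 76 counts over the 6 libraries and no value above 0.470 TPM, and 15 had fewer than 10 counts. Reads were counted in both groups for 25 of them. They include the monoamine carriers slc6a2, slc6a3 and slc6a4b, the taurine carriers slc6a6a and slc6a6b, the intestinal and renal carriers slc6a18, slc6a19a.1, slc6a19a.2 and slc6a19b, and the glutamate carriers slc1a1, slc1a7a and slc1a7b. With no filter on low counts, slc7a6, slc1a4, slc38a11 and slc6a6b passed, and with DESeq2 slc7a6 and slc38a11 did.

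Other genes of amino acid transport and sensing were read from the same fit. Of 14 matched carriers of amino acids or peptides outside the 7 families, 7 were tested, and by edgeR 0 rose and 3 fell (0 were higher at an unadjusted p under 0.05, or by DESeq2 or limma), with a median log2 fold change of -0.40 and 42.9% called, against 32.6% of all tested genes (16.3% as lower). Those that fell were pqlc2 (slc66a1), a lysosomal exporter of cationic amino acids (7.69 to 3.27 CPM, -1.24, SE 0.23), mfsd12a, a carrier that in mammals takes cysteine into lysosomes and melanosomes (8.22 to 3.78 CPM, -1.12, SE 0.27), and slc15a2, a peptide carrier (1.36 to 0.546 CPM, -1.32, SE 0.37). The slc15a2 call was lost without CTL 2, CTL 3, lcat OE 1 or lcat OE 2 (adjusted p = 0.0567 to 0.0734). The pigment cell markers, 9 genes among which mfsd12a is not counted, summed to 91.7 to 319 CPM in CTL and 2.22 to 5.93 CPM in lcat OE. Of 7 tested, 6 were lower, and aox5 was at 0 in lcat OE. Most of the CTL sum came from gch2 (mean 152.8 CPM in CTL, 0.157 CPM in lcat OE). The markers pmela, tyrp1b, tyr, mitfa and dct had means of 0.996, 0.900, 0.710, 0.311 and 0.108 CPM in CTL. The part of the pigment cell markers in the mfsd12a value was not tested. Of 4 transporter partner proteins, 3 were tested and 0 rose or fell by edgeR, with 0 at an unadjusted p under 0.05 and 0 by DESeq2 or limma.

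Of 28 tested genes of amino acid sensing by mTORC1, the kinase complex that couples amino acid supply to growth, 3 rose and 7 fell, which is 35.7% against 32.6% of all genes (median log2 fold change -0.29). Over the whole list, 4 genes fell without CTL 2, 3 without lcat OE 1 and 3 without lcat OE 2. The calls of nprl3, wdr24, wdr59, flcn and fnip1, named after their values were seen, were each lost without lcat OE 2 (edgeR adjusted p = 0.064 to 0.0885). The falls with the smallest p were rragca, a Rag GTPase (13.5 to 4.69 CPM, -1.52, SE 0.15), and tfe3a, a transcription factor held in the cytoplasm by mTORC1 (13.9 to 5.62 CPM, -1.31, SE 0.14). The 3 that rose, named after their values were seen, were sec13 (0.66, SE 0.13), the Rag GTPase rraga (0.56, SE 0.12) and lamtor3 of the Rag anchor (0.63, SE 0.15), and none of these 3 passed with limma on TPM (adjusted p = 0.0535 to 0.0586). Of 18 tested genes of the response to amino acid shortage, 2 rose and 6 fell (44.4%, median -0.23). Over all tested genes 32.6% passed, 16.3% as higher and 16.3% as lower. In this list 1 rose without CTL 3, 1 without lcat OE 2 and 4 without lcat OE 3. The transcription factors atf4b (150.3 to 63.2 CPM, -1.25, SE 0.18) and atf4a (40.6 to 23.9 CPM, -0.76, SE 0.13), whose mammalian counterpart ATF4 switches on amino acid transporter and synthesis genes, both fell. The other falls, named after their values were seen, were atf3 (-1.43, SE 0.22), phgdh (-1.03, SE 0.26), ddit3 (-0.87, SE 0.16) and ppp1r15a (-0.80, SE 0.23). The ppp1r15a call was lost with no filter on low counts and without any 1 of CTL 2, CTL 3, lcat OE 1 or lcat OE 2. For phgdh the edgeR adjusted p was 0.05 without CTL 3. The 2 that rose, named after their values were seen, were chac1, a glutathione-degrading enzyme (303 to 538 CPM, 0.83, SE 0.16), and asns, asparagine synthetase (4.59 to 6.85 CPM, 0.58, SE 0.17). The asns call was lost with 6 of 14 alternatives, among them without CTL 3 (adjusted p = 0.0795), lcat OE 1 (0.0589) and lcat OE 2 (0.0738), up to 0.272.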

How the data were processed

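The authors deposited 1 table with expected counts, TPM, FPKM and a signal made of scaled counts per library, plus group averages; FPKM, the signal and the averages were not used. Among the tools in the submitters' processing notes are RSEM 1.3.1, Bowtie2 2.3.4.3, HISAT and DESeq2 1.4.5, with no roles, and the build is GRCz11; the annotation is not given in the sources used here. No strand-specific step is stated, so reads from a stretch shared by genes on opposite strands may not have been told apart. Of the 74 genes, 6 had a count that was not whole (tolerance 0) in 1 or more libraries: slc6a9, slc43a1b, slc6a16b, slc38a4, slc7a14a and slc7a14b. All 74 NCBI gene numbers were found in a RefSeq table of assembly GRCz12tu, used for names only.

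The expected counts deposited by the authors were rounded. The model had 1 term, the group, and was fitted with edgeR 4.0.16 (R 4.3.3) after filterByExpr and TMM scaling, with its robust quasi-likelihood test, two-sided. P-values were adjusted by Benjamini-Hochberg over all tested genes, with a threshold of 0.05. CPM uses TMM-scaled totals. The SE equals the size of the log2 fold change over the root of F. Alternatives were other scalings and filters, a replicate block, DESeq2 1.42.0, limma 3.58.1 on log2(TPM + 1) and log2(TPM + 0.1), and leaving out each library.

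Genes named are the 12 with the highest mean TPM, up to 3 per family past the threshold with the smallest p, the 4 largest and 4 smallest log2 fold changes past the threshold (minimum 1 CPM in the higher group), the slc3a genes and their slc7a partners, and 2 per pathway list with the smallest p. The members and lists were chosen with earlier results of these data known. No pair of replicates within a group was alike within counting error: chi-square over its degrees of freedom was 10.5 to 33.2.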

Additional observations from a re-analysis of the deposited data

How the results depend on the processing

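Of the 14 called genes, 8 passed under every alternative that tested them (slc6a1b, slc3a2b, slc1a5, slc7a10a, slc6a11a, slc1a2b, slc38a5b and slc38a5a; up to 14 alternatives each), and 6 did not. None of the 14 changed sign under these alternatives. Over all genes, 2293 were higher and 2303 lower. The counts were 1335 and 1369 with at least 5 CPM in 3 libraries and 1075 and 1264 at 2-fold or more. In both of these settings fewer genes can pass by construction. On log2(TPM + 1), 1344 were higher and 3024 lower, and on log2(TPM + 0.1), 1367 were higher and 3068 lower. The cause of this shift was not tested. With at least 5 CPM in 3 libraries, 20 of the 74 genes were tested and 3 were higher and 3 lower. Leaving out 1 library gave 1773 to 2441 higher and 1738 to 2253 lower over all genes, and 5 to 7 higher and 4 to 8 lower among the 74. With the replicate block the counts were 2039 and 2150, and 6 and 7; the numbers mark no known pairing (correlations of -0.05, -0.03 and 0.02 between same-numbered libraries). Values of genes that did not pass changed sign. Leaving out 1 library gave -0.2257 to 0.0577 for slc38a3b, -0.1762 to 0.0136 for slc7a2, -0.3217 to 0.0758 for slc7a3a, -0.4076 to 0.0873 for slc38a3a and -0.5229 to 0.5359 for slc7a9. For slc7a9 the value was also 0.0587 with the replicate block and 0.0018 with DESeq2, and slc6a13 had -0.037 with a pseudocount of 1 TPM and -0.0481 with 0.1 TPM. The pseudocount of 1 TPM lowers the values of scarce genes: slc6a11a was 0.48 and slc1a2b -0.43 there. Counts were too low for a test in 15 of 25 slc6a genes and 8 of 11 slc1a genes.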

Other observations

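The later RefSeq names put 3 further rows of the table in these families, although their symbols there do not start with the 7 prefixes; they were picked after their values were seen. The row zgc:158225, named slc6a7, a carrier that in mammals takes up proline in the brain, had 0.550, 0.282 and 0.329 CPM in CTL and 7.80, 7.49 and 6.21 CPM in lcat OE (log2 fold change 4.20, SE 0.27, edgeR adjusted p = 3.74e-06, below the threshold with all 14 alternatives). The row LOC100332592, named slc6a13, had 9.77, 11.6 and 12.9 CPM in CTL and 6.57, 5.05 and 7.14 CPM in lcat OE (-0.87, SE 0.17, edgeR adjusted p = 0.00327). The row zgc:63694, named slc7a1b, had 41 counts in all and was not tested.

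Among the 34 genes with too few counts for the test, 5 had groups that were apart with over 30 counts in all. They were picked after their values were seen. Of all tested genes, 47.7% had groups that did not overlap, and no such share was taken over genes too low to be tested. Higher in every lcat OE library was the light chain slc7a6, with 11 counts in CTL against 65, of which 47 came from lcat OE 1. Lower in every lcat OE library were slc1a4 (ASCT1 in mammals, 47 against 12 counts), slc1a3b (30 against 5), slc6a6b (47 against 12) and slc38a11 (32 against 1). The ratio of CTL to lcat OE for slc38a11 was 31.1 (exact 95% counting interval 5.20 to 1266), and it was 20.4 without lcat OE 1, 21.7 without lcat OE 3 and at least 3.33 without lcat OE 2, where no count was left.

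The deposited counts divided by TPM give the transcript length that the authors' counting used in each library. Set against the median gene of the library, this length was lower in lcat OE by 0.28 on the log2 scale for slc1a2b. In absolute size this was more than for 98.6% of tested genes. The length differed by less than 0.05 for the other 37 transporter genes with a value. For slc1a2b it rests on 27, 12 and 19 counts and on rounded values of 0.3, 0.1 and 0.24 TPM in lcat OE 1 to 3. The 0.28 is a difference of group means, and lcat OE 2 did not share the lower length. The part of rounding and counting error in this shift was not tested.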
